A study of Mus musculus with 15 samples.

Results

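The core replication histone genes are the 55 genes, of 19069 in the RNA count files, whose symbols name them as H2A, H2B, H3 or H4 genes of the clusters Hist1 to Hist4. They comprise 15 H2A, 18 H2B, 11 H3 and 11 H4 genes, with 43 in Hist1, 8 in Hist2, 3 in Hist3 and 1 in Hist4. Membership rests on the symbols alone, though the set was chosen with earlier results of these data known. The cells of every sample were NIH3T3, a long-established mouse fibroblast line. Irradiated cells were washed, received UV-C light of 254 nm at a dose of 80 J/m2 without medium, were given new medium with DMSO and were collected 6 h later, and untreated cells received no UV. Whether untreated cells were also washed, re-fed or given DMSO is not stated in the labels, so irradiation and these steps cannot be told apart. RNA was sequenced from 3 irradiated and 3 untreated libraries, and FAIRE-seq, which recovers accessible DNA, and ChIP-seq for acetylated lysine 27 of histone H3 (H3K27ac) from 2 irradiated and 2 untreated samples each, with 1 input DNA sample. Nothing in the labels says that replicates were separate cultures, so p-values measure the spread between these libraries.

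The H2A, H2B, H3 and H4 proteins form the nucleosome core, around which DNA is wrapped. Most of their supply is made in S phase from clustered, intronless gene copies, whose mRNAs end in a stem-loop held by the stem-loop binding protein SLBP rather than in a poly(A) tail, and which are known to be degraded quickly when DNA replication stops. The NPAT protein and other factors gather at these clusters in histone locus bodies and switch the genes on. Whether the libraries were made from poly(A) RNA is not stated in the labels. Many copies are nearly identical within their coding sequence, so reads can be split between copies or lost, and the values of single genes are uncertain in that respect. Whether the counting used strand is not stated either.

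The promoters of members that the results turn on are shown here because the classes are known to differ in their promoter elements. The sequences are those of RefSeq for the build GRCm38.p6, a later build than the mm9 of the chromatin files, and each ends at the base before the annotated start. They are read 5′ to 3′ on the strand of the gene, and capitals mark TATAAA (the TATA box), CCAAT (the CCAAT box), ATGCAAAT (the octamer) and GGTCCG (a part of the H4 element bound by the factor HINFP), or the reverse complement of each. Hist1h2bg, which shares its promoter head to head with Hist1h2ae, is shown as chr13:23571221-23571399 on the plus strand. Hist2h2bb, the member with the most counts, is chr3:96269450-96269699 on the plus strand, and Hist2h2ac, whose neighbour Hist2h2be moved the other way, is chr3:96220881-96221071 on the minus strand. Hist1h3g had the greatest fall in RNA and is chr13:23535168-23535417 on the plus strand. The H4 genes Hist1h4i, chr13:22041363-22041612 on the minus strand, and Hist1h4d, chr13:23581318-23581567 on the plus strand, had the largest and the smallest fold change of their class. Hist1h2bg and Hist2h2ac are printed only as far as the next annotated gene, and the others over 250 bases.
Hist1h2bg: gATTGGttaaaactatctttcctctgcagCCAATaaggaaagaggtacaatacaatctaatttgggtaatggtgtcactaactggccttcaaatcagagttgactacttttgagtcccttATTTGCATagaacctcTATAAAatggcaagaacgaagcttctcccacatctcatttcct
Hist2h2bb: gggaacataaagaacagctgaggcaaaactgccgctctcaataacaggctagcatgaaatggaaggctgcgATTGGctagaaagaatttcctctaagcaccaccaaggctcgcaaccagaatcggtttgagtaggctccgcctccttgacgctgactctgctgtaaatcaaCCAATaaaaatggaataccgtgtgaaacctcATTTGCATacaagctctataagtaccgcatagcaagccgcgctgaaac
Hist2h2ac: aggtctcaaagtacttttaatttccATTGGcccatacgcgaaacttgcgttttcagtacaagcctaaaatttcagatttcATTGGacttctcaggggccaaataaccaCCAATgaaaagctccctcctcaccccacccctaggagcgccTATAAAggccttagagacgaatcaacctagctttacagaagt
Hist1h3g: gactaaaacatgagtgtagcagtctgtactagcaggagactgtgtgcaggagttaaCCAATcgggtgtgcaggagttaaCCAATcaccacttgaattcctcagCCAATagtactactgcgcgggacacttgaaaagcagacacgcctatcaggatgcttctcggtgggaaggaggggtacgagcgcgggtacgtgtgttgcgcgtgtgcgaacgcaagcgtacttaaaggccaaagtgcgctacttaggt
Hist1h4i: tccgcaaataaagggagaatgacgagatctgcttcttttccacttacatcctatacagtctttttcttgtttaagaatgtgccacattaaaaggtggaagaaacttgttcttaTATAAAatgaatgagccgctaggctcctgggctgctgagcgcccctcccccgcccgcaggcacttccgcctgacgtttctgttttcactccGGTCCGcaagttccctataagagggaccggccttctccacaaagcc
Hist1h4d: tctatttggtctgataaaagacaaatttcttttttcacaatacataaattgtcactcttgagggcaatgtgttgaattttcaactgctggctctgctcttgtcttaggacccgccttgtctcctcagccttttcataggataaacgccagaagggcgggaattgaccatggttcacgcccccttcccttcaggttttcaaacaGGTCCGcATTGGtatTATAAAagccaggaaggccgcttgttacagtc

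Of the 55 members, 54 matched 1 RefSeq gene and Hist1h2ap matched more, and 48 had a promoter sequence. Over the 250 bases before the start, searched on both strands, CCAAT stood in 14 of 14 H2A, 15 of 15 H2B, 8 of 9 H3 and 3 of 10 H4 promoters, against 33.8% of all 32851 promoter windows in the RefSeq table. TATAAA stood in 7 H2A, 8 H2B, 4 H3 and 4 H4 promoters, against 12.4% of all windows. The octamer was found in 7 H2A and 7 H2B promoters and in no H3 or H4 promoter, against 1.6% of all windows. GGTCCG was found in 7 of 10 H4 promoters, 1 H2B, 1 H3 and no H2A promoter, against 6.72% of all windows. Head-to-head partners share the bases between their starts, so matches there are not separate. Where the starts lie closer than 250 bases, the search also reached into the partner gene. TATAAA was counted for Hist1h2bn but not for its partner Hist1h2ak, 164 bases away, so that match lies outside the shared bases. The octamer counted for Hist2h2ac does not lie within its printed 191 bases, which end at the next annotated gene. Hist1h4i and Hist1h4d, which lie at opposite ends of the H4 fold changes, both hold GGTCCG and TATAAA. In Hist1h4d TATAAA stands after GGTCCG, near the start. In Hist1h4i the exact TATAAA stands well before GGTCCG, but the near match TATAAG, left unmarked, stands after it, near the start. The order of exact matches thus does not show that these promoters are built differently. Matches were counted at any position, so a match does not show a working element.

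RNA of nearly every measured core histone gene was lower in irradiated cells, in all 4 classes. Of 48 members with enough counts to test, 44 were lower and 1 was higher at an adjusted p below 0.05, against 12.4% lower and 7.7% higher among all 14925 genes tested. The median log2 fold change of the 48, irradiated over untreated, was −1.77, against −0.01 for all genes tested. With library totals alone, in place of TMM scaling, 47 members were lower and 1 was higher, while the calls over all genes moved to 3739 lower and 905 higher, against 1854 lower and 1149 higher with TMM. In 47 of the 48 every irradiated library lay below every untreated one, against 17.3% of all genes, and in 1 every irradiated library lay above, against 16.6%. A fall of at least 2-fold was called for 41 members, against 5.37% of all genes. Hist1h2an and Hist1h2ba reached the filter on low counts only through the untreated libraries, and of the other 46 members 43 were lower. Hist1h2ap, Hist1h2br, Hist2h2aa2 and Hist2h3c1 had no count in any library, and Hist1h2aa, Hist3h2ba and Hist3h2bb-ps had too few to test. The authors' deposited table of called genes lists 45 members, 44 of them lower and 1 higher, and 43 of the calls made here stand in it at an adjusted p below 0.05 in the same direction.

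**Figure D1:**
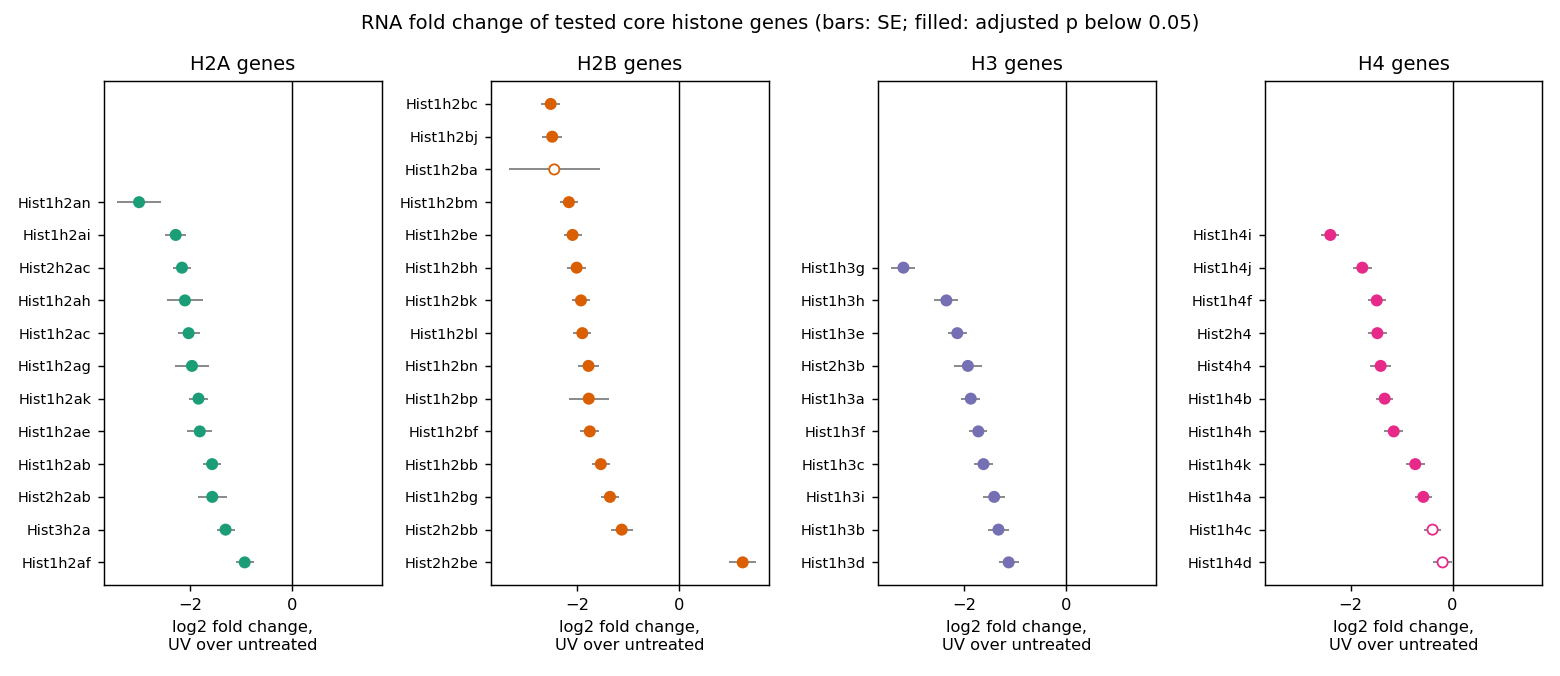
The log2 fold change of RNA, irradiated over untreated, is on the x axis for each of the 48 tested genes, in a panel for each class, with bars for the SE and filled points for an adjusted p below 0.05. All points lie left of 0 except Hist2h2be at 1.26, and the open points are Hist1h2ba, Hist1h4c and Hist1h4d.

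The libraries held 14211528 to 22032701 counts. Irradiated replicate 1 had counts in 17607 genes, against 18597 to 18603 in the other irradiated and 18350 to 18787 in the untreated libraries. Without irradiated replicate 1, 44 members were again lower and 1 higher, at a median of −1.76. Its chi-square per degree of freedom was 54.6 and 52.45 against the other irradiated libraries, which had 5.45 between them. Untreated replicate 1 also stood apart, at 44.2 and 41.0 against the other untreated libraries, which had 16.8 between them. The 10 fibroblast markers tested summed to 22019 to 39314 CPM (counts scaled to library size, with TMM factors) in irradiated and 17660 to 23056 CPM in untreated libraries. Within that list the collagen gene Col1a1 was not called. It had 6364 CPM in irradiated replicate 1, against 2520 and 2463 CPM in the other irradiated libraries. In untreated replicate 1 it had 3270 CPM, against 2122 and 1979 CPM in the other untreated libraries. Pdgfra, a growth factor receptor, was lower (−1.46 ± 0.32, adjusted p = 0.00308). Pdgfra had 466 CPM in untreated replicate 1, against 1254 and 1111 CPM in the other untreated libraries. In irradiated libraries it had 214, 404 and 413 CPM. Fn1, which encodes fibronectin (1.58 ± 0.24, adjusted p = 0.000144), and the surface protein gene Thy1 (0.99 ± 0.25, adjusted p = 0.00799) were higher. Of the other lists, 1 marker was called: Cd68, which encodes a lysosomal protein, averaged 10.6 ± 0.701 CPM in irradiated and 4.03 ± 0.0934 CPM in untreated libraries (SD, n = 3 each; 1.39 ± 0.21, adjusted p = 0.000131). The part of these differences in the histone results was not tested. The epithelial, endothelial, leukocyte, muscle and neural marker lists summed to at most 16.2 CPM in any irradiated and 10.7 CPM in any untreated library. Bulk RNA does not tell fewer cells in S phase from less histone RNA per cell.

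All 12 tested H2A genes were lower, against 12.4% of all genes tested, at a median of −1.90. Hist3h2a, which lies in the small Hist3 cluster, had 32.4, 31.6 and 28.8 CPM in irradiated libraries, against 83.0, 78.6 and 67.7 CPM in untreated ones, so that the log2 fold change, with its SE here and below, was −1.30 ± 0.18 (edgeR quasi-likelihood test throughout, adjusted p = 4.6e-05). Hist2h2ac had 12.6, 11.5 and 13.1 CPM in irradiated libraries, against 56.8, 61.2 and 48.3 CPM in untreated ones (−2.16 ± 0.18, adjusted p = 3.36e-07). The 3 irradiated libraries lay within a narrow range, far below the untreated ones, for both. Hist1h2ab had 7.67, 8.42 and 10.4 CPM in irradiated libraries, against 26.7, 25.8 and 26.1 CPM in untreated ones (−1.57 ± 0.18, adjusted p = 1e-05). Hist1h2ak had 5.51, 8.22 and 7.30 CPM in irradiated libraries, against 25.1, 25.2 and 24.8 CPM in untreated ones (−1.84 ± 0.19, adjusted p = 3.37e-06).

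The largest H2A fold change belonged to Hist1h2an, with 0.990, 0.539 and 0.290 CPM in irradiated libraries, against 5.49, 4.82 and 4.36 CPM in untreated ones (−3.00 ± 0.44, adjusted p = 9.23e-05). It rests on few counts in the irradiated group, and its SE is the widest among the called members. The smallest belonged to Hist1h2af, with 8.48, 9.36 and 9.27 CPM in irradiated libraries, against 16.8, 18.6 and 16.2 CPM in untreated ones (−0.93 ± 0.18, adjusted p = 0.00111). The other H2A gene tested in Hist2, Hist2h2ab, had 2.60, 2.02 and 2.03 CPM in irradiated libraries, against 5.08, 7.69 and 6.93 CPM in untreated ones (−1.57 ± 0.29, adjusted p = 0.000768). None of the 12 tested H2A genes had overlapping groups, while 17.3% of all genes tested had every irradiated library below every untreated one. Of the 3 H2A genes not tested, Hist1h2aa, which encodes a testis H2A, reached at most 0.0674 CPM in irradiated and 0.268 CPM in untreated libraries.

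The H2B genes held both directions. Of 15 tested, 13 were lower, 1 was higher and 1 was not called, at a median of −1.90. Among all genes tested 12.4% were lower and 7.7% higher. Hist2h2bb had 482, 388 and 343 CPM in irradiated libraries, against 956, 962 and 719 CPM in untreated ones (−1.12 ± 0.22, adjusted p = 0.00122). It alone took 33.5% ± 3.38 of the core histone counts in irradiated and 30.6% ± 2.21 in untreated libraries (SD, n = 3 each), ranges that overlap. Hist1h2be had 18.1, 20.7 and 20.5 CPM in irradiated libraries, against 87.0, 82.5 and 82.7 CPM in untreated ones (−2.09 ± 0.18, adjusted p = 3.78e-07). Its groups differ by far more than the spread within them. Hist1h2bb had 30.4, 32.1 and 27.7 CPM in irradiated libraries, against 88.4, 95.7 and 76.9 CPM in untreated ones (−1.53 ± 0.18, adjusted p = 1.2e-05). Hist1h2bg had 22.6, 23.1 and 18.4 CPM in irradiated libraries, against 59.6, 54.5 and 49.6 CPM in untreated ones (−1.35 ± 0.18, adjusted p = 3.33e-05). Hist1h2bc, with the largest called fall of the class, had 8.85, 6.87 and 7.36 CPM in irradiated libraries, against 45.5, 43.5 and 43.3 CPM in untreated ones (−2.52 ± 0.18, adjusted p = 7.49e-08).

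Hist2h2be was the only member called higher after UV. It encodes H2BE, an H2B variant described in mouse olfactory neurons. Its level was 7.98, 7.01 and 7.59 CPM in irradiated libraries, against 2.95, 2.37 and 4.10 CPM in untreated ones (1.26 ± 0.26, adjusted p = 0.00217). All irradiated libraries lay above all untreated ones, and under the alternative processing tried it was called each time, with an adjusted p of at most 0.0326. The authors' deposited table gives it a log2 fold change of 1.31 at an adjusted p of 0.00309. Its neighbour is the H2A gene Hist2h2ac, described above, which fell by 2.16 on the log2 scale. Hist1h2ba, which encodes a testis H2B, had 0.0619, 0.0674 and 0.232 CPM in irradiated libraries, against 0.674, 0.773 and 0.651 CPM in untreated ones. The groups did not overlap, but the fold change of −2.45 ± 0.89 missed the threshold (adjusted p = 0.0615), and was called without the low-count filter (adjusted p = 0.0372) and with library totals alone (adjusted p = 0.0323).

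**Figure D2:**
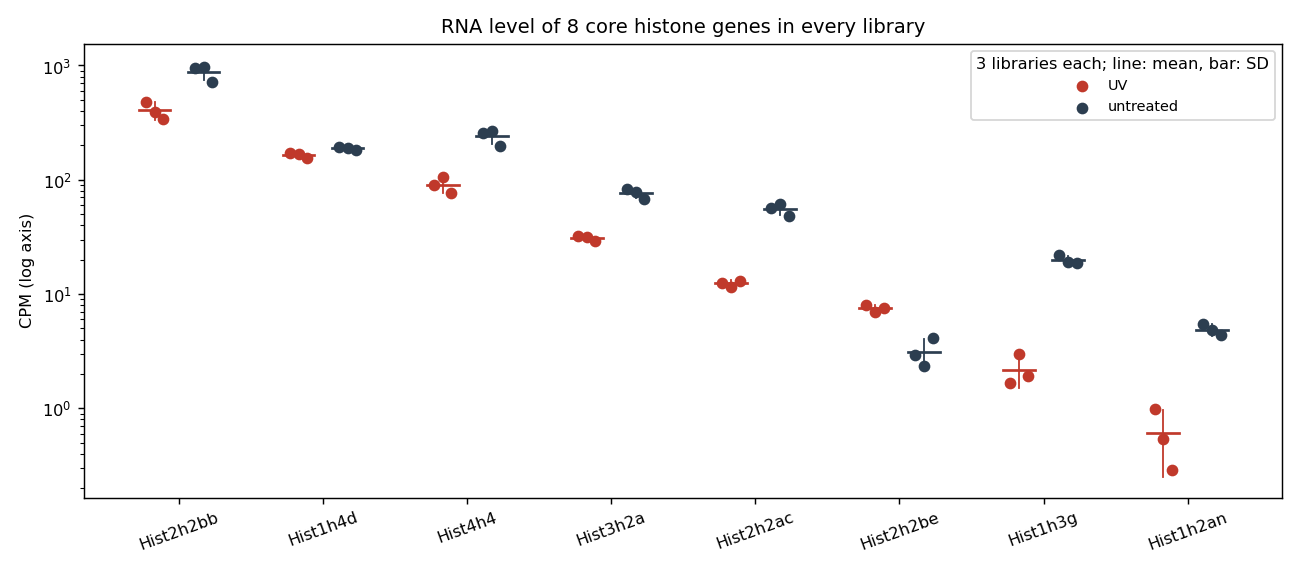
RNA levels in CPM, on a log axis, of 8 core histone genes in each of the 3 irradiated and 3 untreated libraries, with lines for the mean and bars for the SD. Hist2h2be is the only gene shown whose irradiated libraries lie higher, and the groups lie closest for Hist1h4d, at 156 to 172 CPM in irradiated and 183 to 194 CPM in untreated libraries.

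All 10 tested H3 genes were lower, against 12.4% of all genes tested, at a median of −1.79. The 4 genes for the H3.1 protein (Hist1h3a, Hist1h3g, Hist1h3h and Hist1h3i) had a median of −2.10, and the 6 tested genes for H3.2 a median of −1.67. Their ranges overlap, from −3.19 to −1.40 for H3.1 and from −2.13 to −1.12 for H3.2, and the difference was not tested. Hist1h3g, an H3.1 gene, had the lowest fold change of all members and of all 14925 genes tested, with 1.67, 2.96 and 1.91 CPM in irradiated libraries, against 21.9, 18.9 and 18.7 CPM in untreated ones (−3.19 ± 0.23, adjusted p = 8.42e-08). That is 9.11-fold lower in irradiated cells. Hist1h3a, also H3.1, had 6.68, 7.68 and 5.91 CPM in irradiated libraries, against 23.7, 26.3 and 23.8 CPM in untreated ones (−1.87 ± 0.18, adjusted p = 2.01e-06). Among the H3.2 genes, Hist1h3f had 23.1, 21.4 and 19.6 CPM in irradiated libraries, against 74.1, 69.1 and 67.8 CPM in untreated ones (−1.72 ± 0.17, adjusted p = 2.66e-06). It was the H3 gene with the most counts. Hist1h3c had 12.9, 11.4 and 8.63 CPM in irradiated libraries, against 34.6, 35.3 and 30.8 CPM in untreated ones (−1.61 ± 0.19, adjusted p = 1.02e-05). Hist1h3b had 15.2, 11.9 and 9.27 CPM in irradiated libraries, against 34.3, 29.5 and 26.98 CPM in untreated ones (−1.32 ± 0.20, adjusted p = 0.000119). Hist2h3b, the H3 gene tested in Hist2, had 3.09, 2.16 and 1.74 CPM in irradiated libraries, against 9.48, 9.69 and 7.35 CPM in untreated ones (−1.92 ± 0.27, adjusted p = 6.54e-05). Within the class the fold changes ran from −3.19 to the −1.12 of Hist1h3d. None of the 10 tested H3 genes had overlapping groups, while 17.3% of all genes tested had every irradiated library below every untreated one.

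The H4 genes ran from −2.40 to −0.20 in log2 fold change. Of 11 tested, 9 were lower, against 12.4% of all genes tested, and 2 were not called, at a median of −1.33. Hist1h4i had 11.3, 12.1 and 11.5 CPM in irradiated libraries, against 57.0, 66.1 and 61.2 CPM in untreated ones (−2.40 ± 0.18, adjusted p = 8.42e-08). Hist1h4d had 172, 167 and 156 CPM in irradiated libraries, against 194, 190 and 183 CPM in untreated ones (−0.20 ± 0.19, adjusted p = 0.616). Both encode the same H4 protein, and they are 5.29-fold and 1.14-fold lower in irradiated cells. Hist1h4c had 49.5, 47.8 and 45.4 CPM in irradiated libraries, against 60.7, 69.2 and 57.4 CPM in untreated ones (−0.39 ± 0.17, adjusted p = 0.129). Hist1h4c and Hist1h4d thus lay lower in every irradiated library without passing the test, and with library totals alone, which shifts the median of all genes to −0.24, both passed it (adjusted p = 0.00242 and 0.0214). Hist1h4c also passed when only genes reaching 1 CPM in 3 or more libraries were tested (adjusted p = 0.0417), and over the alternatives its adjusted p ran up to 0.556 and that of Hist1h4d up to 0.988.

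Hist4h4, the lone member of its cluster, had 90.1, 106 and 76.6 CPM in irradiated libraries, against 256, 269 and 199 CPM in untreated ones (−1.41 ± 0.21, adjusted p = 0.000109). Hist1h4h had 37.9, 50.1 and 46.2 CPM in irradiated libraries, against 89.9, 112 and 96.8 CPM in untreated ones (−1.16 ± 0.19, adjusted p = 0.000246). The groups of both are far apart. Hist2h4 had 17.3, 16.6 and 13.2 CPM in irradiated libraries, against 44.9, 48.8 and 37.6 CPM in untreated ones (−1.48 ± 0.18, adjusted p = 1.98e-05). The smallest called falls were those of Hist1h4a, at 26.9, 28.2 and 29.2 CPM in irradiated and 40.6, 41.8 and 43.0 CPM in untreated libraries (−0.57 ± 0.16, adjusted p = 0.0183), and of Hist1h4k (−0.73 ± 0.18, adjusted p = 0.00803). Hist1h4a lost its call without irradiated replicate 3, without each untreated replicate and without the low-count filter, with an adjusted p of at most 0.134. Hist1h4k lost its call without untreated replicate 2 and without untreated replicate 3, with an adjusted p of at most 0.102.

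By cluster, the median log2 fold change was −1.79 over the 40 tested Hist1 genes, 37 of them lower, and −1.52 over the 6 tested Hist2 genes, 5 of them lower and 1 higher. Hist3 and Hist4 had 1 tested gene each, at −1.30 and −1.41. Among all genes tested 12.4% were lower and 7.7% higher. The clusters were not tested against each other, and each class median and cluster median is a description.

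Summed over all members, core histone genes took 0.103%, 0.128% and 0.101% of the counts in irradiated libraries, against 0.315%, 0.309% and 0.304% in untreated ones. The mean share was 2.79-fold lower in irradiated libraries, at 0.111% ± 0.0147, against 0.309% ± 0.0056 in untreated ones (SD, n = 3 each). The make-up of what remained also differed, in shares that count reads and are not per gene length. H4 genes took 37.7%, 42.3% and 42.3% of the core histone counts in irradiated libraries, against 31.3%, 33.3% and 34.0% in untreated ones. H3 genes took 6.25% ± 0.244 in irradiated and 8.80% ± 0.379 in untreated libraries, and H2A genes 7.03% ± 0.805 in irradiated and 9.30% ± 0.322 in untreated libraries (SD, n = 3 each). The H4 share was higher, and the H3 and H2A shares lower, in every irradiated library than in any untreated one. H2B genes took 45.9% ± 3.27 in irradiated and 49.0% ± 1.79 in untreated libraries, with overlapping ranges. These sums have no test of their own, since they are weighted by the few members with most counts.

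**Figure D3:**
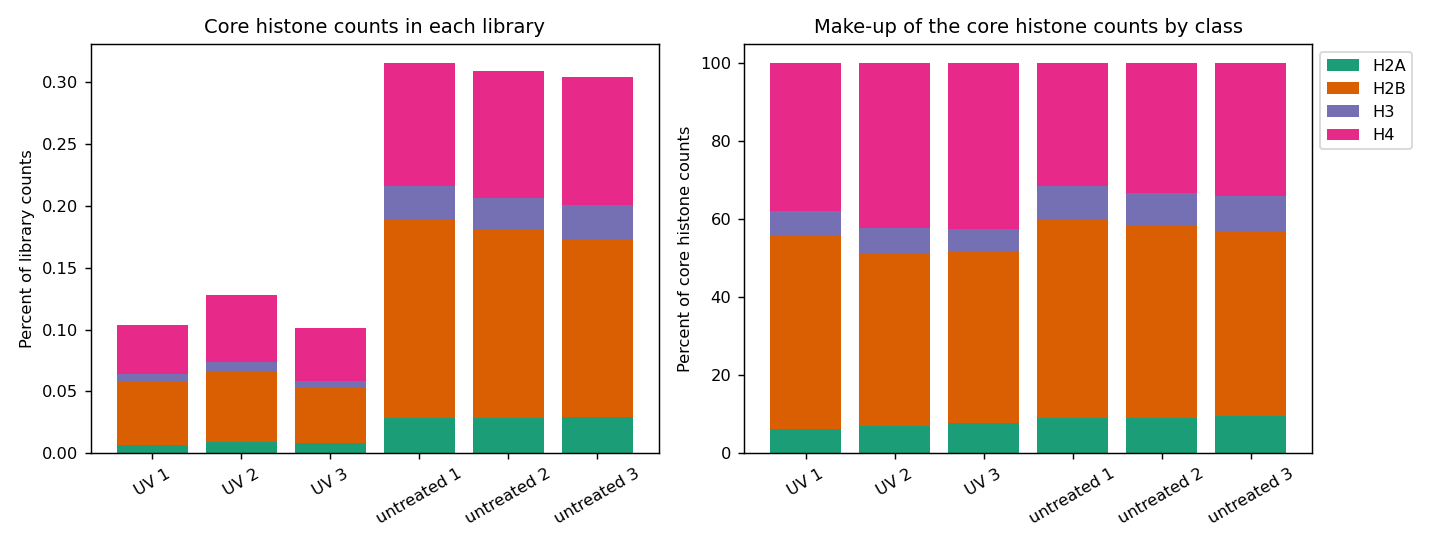
The bars give core histone counts of each class as a percent of all counts (left) and of all core histone counts (right), for each of the 3 irradiated and 3 untreated libraries. The summed share is 0.101% to 0.128% in irradiated and 0.304% to 0.315% in untreated libraries, and the H4 part is larger in the irradiated ones.

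Several H2A and H2B genes lie head to head and share the bases between their starts. There were 7 such pairs with both starts in the promoter table, 164 to 281 bases apart in RefSeq, and in 6 both genes were tested. Both genes were lower in all 6, while 12.4% of all genes tested were lower. The fold changes within a pair were close for Hist1h2ak and Hist1h2bn, at −1.84 and −1.77, and differed by 1.23, the most among the 6, for Hist1h2an and Hist1h2bp, at −3.00 ± 0.44 and −1.77 ± 0.39. Hist1h2ae and Hist1h2bg, whose common sequence is printed above, had −1.81 ± 0.24 and −1.35 ± 0.18. The neighbours Hist2h2ac and Hist2h2be, at −2.16 and 1.26, were the only adjacent H2A and H2B genes among the 8 plotted that moved in opposite directions. The difference between partners was not tested.

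**Figure D4:**
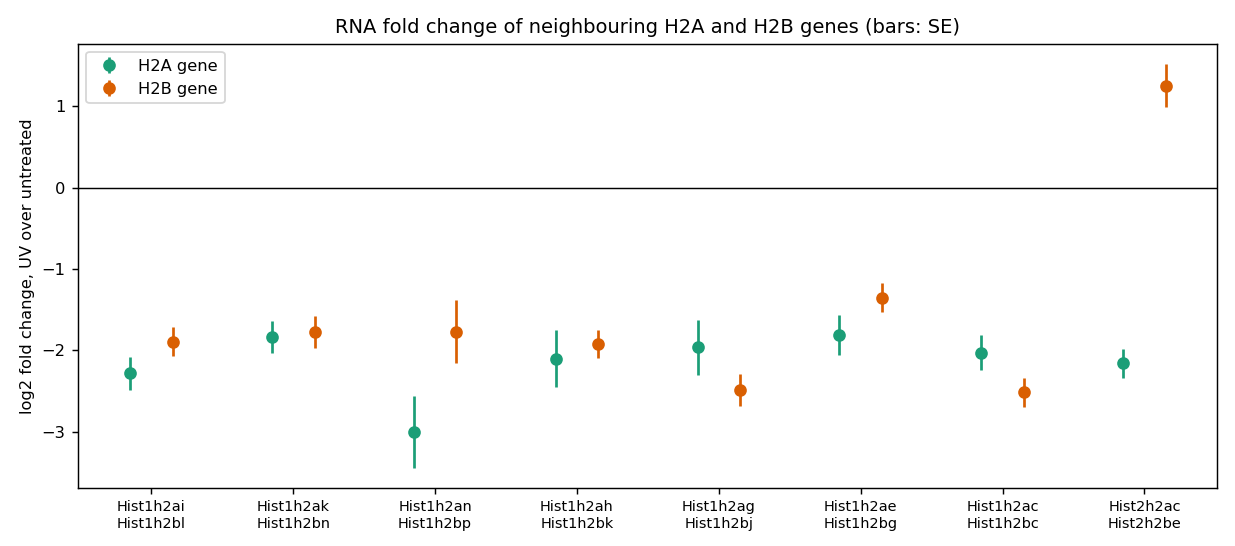
The y axis gives the log2 fold change of RNA, irradiated over untreated, for 8 pairs of neighbouring H2A and H2B genes, with bars for the SE. The plotted pairs are head to head or have 1 start that is not in the promoter table. Tested neighbours that are not head to head, such as Hist1h2ab with Hist1h2bb, are left out. In 7 pairs both points lie below 0, and in the last Hist2h2ac lies at −2.16 and Hist2h2be at 1.26.

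Related genes, from lists that are not members, moved as follows. All 5 tested linker histone H1 genes of the Hist1 cluster, which bind DNA between nucleosomes, were lower, at a median of −1.99. Their counts came to 19.5% ± 0.216 of the core histone counts in irradiated and 37.6% ± 0.600 in untreated libraries (SD, n = 3 each), without overlap. The variants listed as replication-independent held 2 lower and 3 higher genes among 11 tested, at a median of 0.30, against 12.4% lower and 7.7% higher among all genes. Higher were H2afj, with 155, 116 and 140 CPM in irradiated and 33.3, 43.2 and 38.8 CPM in untreated libraries (1.83 ± 0.20, adjusted p = 4.35e-06), H3f3b, which encodes H3.3 (0.91 ± 0.20, adjusted p = 0.00373), and H2afv, a gene for an H2A.Z (0.65 ± 0.21, adjusted p = 0.0337). H2afj is the RefSeq neighbour of Hist4h4, which fell by 1.41. Lower were the linker histone variant H1f0 (−1.10 ± 0.20, adjusted p = 0.000754) and H2afx, the source of the damage mark gamma-H2AX (−0.84 ± 0.18, adjusted p = 0.00229).

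Of 17 tested genes for the activation, 3′ end processing and decay of histone mRNA, 7 were lower and none was higher, at a median of −0.30, against the same 12.4% and 7.7% of all genes. Slbp had 51.1, 37.8 and 45.1 CPM in irradiated libraries, against 125, 122 and 93.7 CPM in untreated ones. The histone gene activator Npat averaged 28.3 ± 5.96 CPM in irradiated and 66.9 ± 3.28 CPM in untreated libraries (−1.24 ± 0.19, adjusted p = 0.00013). Lsm11, a protein of the U7 particle that directs the cut of the 3′ end, averaged 21.3 ± 4.79 CPM in irradiated and 40.9 ± 2.81 CPM in untreated libraries (−0.94 ± 0.19, adjusted p = 0.00147). Mblac1, which encodes a nuclease of histone pre-mRNA, was also lower, at few counts. Of 14 tested histone chaperones 4 were lower (Nasp, Daxx, Asf1a and Chaf1a) and 1, Ipo4, was higher, at a median of 0.18, and of 25 S phase genes, with Slbp counted again, 4 were lower (Slbp, Ccne1, Cdc6 and Ccne2) and none was higher, at a median of −0.03. The 4 of 25 S phase genes lower, and the 1 of 14 chaperones higher, lie near the 12.4% lower and 7.7% higher of all genes and are no result about those lists. Pcna, a clamp of the replication machinery, was not called, at 378 ± 61.3 CPM in irradiated and 313 ± 50.3 CPM in untreated libraries (0.27 ± 0.21, adjusted p = 0.484). The difference between the core histone genes and these lists was not tested.

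At promoters, reads were pooled over the samples of a condition by the authors, so there are no replicates and no test, and intervals cover counting error only. The tables give windows of 1000 bases, of which 52 members have at least 1 input read. Hist1h2ap, Hist1h2br and Hist2h3c1 have none. The windows of head-to-head genes overlap and share reads, and the members had a median of 15 input reads, against 27 for all 21351 promoters.

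FAIRE signal was lower at most core histone promoters, by an amount that depends on the scaling of the pools. The median difference in log2 enrichment, irradiated minus untreated, was −0.62, against −0.18 for all promoters, with the authors' input scaling. It was −0.27, against 0.06 for all promoters, with reads scaled by pool totals, and −0.21, against 0.00 for all promoters, after quantile normalization. It was below 0 for 50 of 52 members, against 69.6% of all promoters, and for 43 members, against 41.8%, with pool totals. Among the upper 50% of promoters by enrichment, the median was −0.66 for 49 members and −0.41 for all, with 48 members below 0, against 90.5% of all, so the count in 1 direction lies near the background there. A loss of at least 1 was seen at 5 members, against 1.07% of all promoters and 2.1% of those in the upper 50%, and a gain of at least 1 at none, against 0.00468% and 0.00937%. By class the medians were −0.77 for H2A, −0.68 for H2B, −0.59 for H3 and −0.53 for H4.

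The largest FAIRE losses were those of the head-to-head pair Hist1h2bj and Hist1h2ag. Hist1h2bj had 16 reads in the irradiated and 65 in the untreated pool, a ratio of 0.307 (95% interval 0.166 to 0.536) with the authors' input scaling and 0.399 (0.215 to 0.697) with pool totals, and Hist1h2ag had 17 reads in the irradiated and 66 in the untreated pool. These genes face each other, so the windows overlap and the losses are not separate. Of the members with most FAIRE enrichment, Hist2h2bb had 66 reads in the irradiated and 137 in the untreated pool, at a ratio of 0.600 (0.440 to 0.811) with the input scaling and 0.781 (0.573 to 1.05) with pool totals, where the interval includes 1. Hist1h2bk had 29 reads in the irradiated and 69 in the untreated pool, and Hist1h2an 34 in the irradiated and 62 in the untreated pool. At the other end of the more enriched members, Hist1h4j had 20 reads in each pool and Hist2h4 79 in the irradiated and 102 in the untreated pool, at ratios by input scaling of 1.25 (0.636 to 2.44) and 0.965 (0.710 to 1.31), both with intervals that include 1.

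H3K27ac was lower at most Hist1 promoters, at a median difference of −0.44 over 41 promoters, 34 of them below 0. In Hist2 the median was 0.05 over 7 promoters, 2 of them below 0, and at Hist4h4 the difference was 0.17. These values use the authors' input scaling. With pool totals the Hist2 read ratio, irradiated over untreated, was above 1 only at Hist2h4 (1.14). At the other Hist2 promoters it ran from 0.606 at Hist2h2bb to 0.975 at Hist2h2ac, so the direction in Hist2 depends on the scaling. Over all 52 members the median was −0.41, against −0.05 for all promoters and 0.04 for those in the upper 50% by enrichment. It was −0.20, against 0.01 for all promoters, after quantile normalization, and −0.53, against −0.10, with pool totals. A difference below 0 was seen at 39 of 52 members, against 57.4% of all promoters and 47.2% of those in the upper 50%. A loss of at least 1 was seen at 7 members, against 3.51% of all promoters and 5.41% of those in the upper 50%, and a gain of at least 1 at 3 members, against 2.44% and 4.41%. By class the medians were −0.21 for H2A, −0.56 for H2B, −0.44 for H3 and −0.10 for H4.

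**Figure D5:**
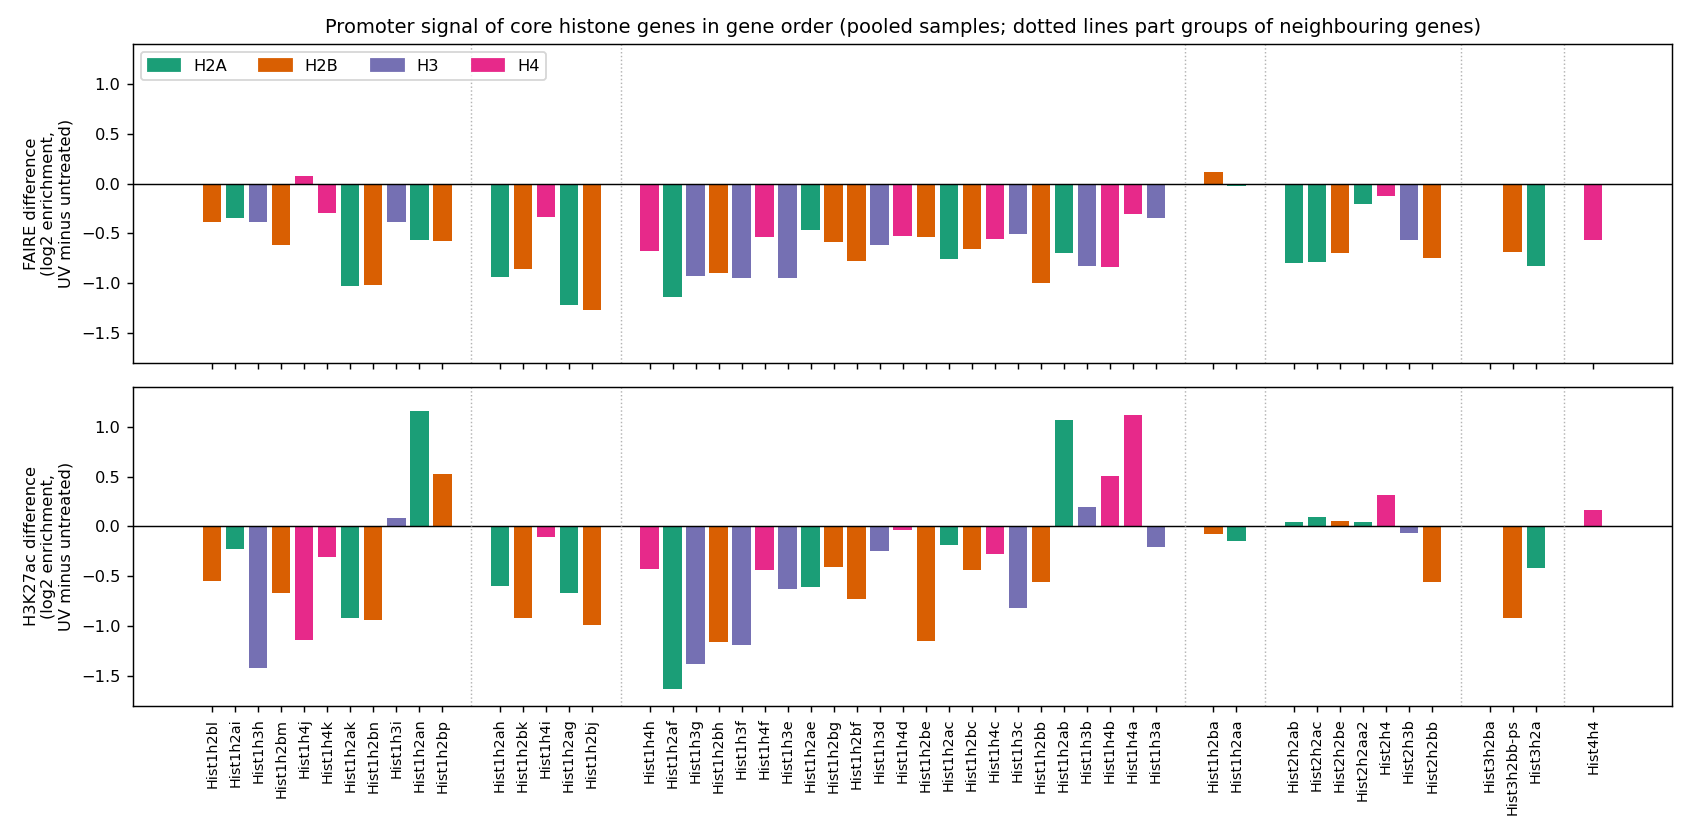
Bars give the difference in log2 enrichment, irradiated minus untreated pool, for FAIRE (upper panel) and H3K27ac (lower panel) at each promoter with an input read, in RefSeq gene order within 7 groups of neighbours and coloured by class. FAIRE bars point down at 50 of 52 promoters, while H3K27ac bars point up at 13. Among these are runs at Hist1h3i to Hist1h2bp and at Hist1h2ab to Hist1h4a. The bars use the authors' input scaling, and with pool totals H3K27ac lay below 0 at 44 of 52 promoters. The H3K27ac ratio interval of Hist1h3i (0.826 to 1.37) includes 1. Hist1h2an and Hist1h2bp are a head-to-head pair whose windows share reads.

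The 3 members with the highest H3K27ac enrichment lie in Hist2. Hist2h4 had 1121 reads in the irradiated and 891 in the untreated pool, at a ratio by input scaling, used below too, of 1.25 (95% interval 1.14 to 1.36). Hist2h2ab had 595 reads in the irradiated and 574 in the untreated pool, and Hist2h2aa2, which had no RNA count, 414 in the irradiated and 399 in the untreated pool, with both intervals including 1. Around Hist2h2ac and Hist2h2be, whose RNA moved apart, the windows had 243 and 355 reads in the irradiated and 225 and 339 in the untreated pool, and the FAIRE windows 34 and 33 reads in the irradiated and 79 and 72 in the untreated pool. Both windows held similar ratios in both assays. These genes are neighbours in RefSeq, and the next annotated gene cuts the printed Hist2h2ac promoter at 191 bases. Windows of 1000 bases around such close starts can share most of their reads, so the similar ratios do not describe each gene separately. The overlap in mm9 was not tested.

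The largest H3K27ac losses were those of Hist1h2af, with 31 reads in the irradiated and 129 in the untreated pool, at a ratio of 0.238 (0.156 to 0.355), and Hist1h3h, with 94 in the irradiated and 278 in the untreated pool, at 0.335 (0.262 to 0.425). Hist1h2af lies next to Hist1h3g, Hist1h2bh and Hist1h3f, which also lost at least 1, at −1.38, −1.16 and −1.19. These 3 were picked after their values were seen. Gains of at least 1 were those of Hist1h2an, with 158 reads in the irradiated and 62 in the untreated pool (ratio 2.53, 1.87 to 3.45), Hist1h4a, with 338 in the irradiated and 146 in the untreated pool (2.30, 1.89 to 2.81), and Hist1h2ab, with 317 in the irradiated and 142 in the untreated pool (2.21, 1.81 to 2.72). Hist1h2ab, Hist1h3b, Hist1h4b and Hist1h4a follow each other, at 1.07, 0.20, 0.51 and 1.12, between Hist1h2bb at −0.56 and Hist1h3a at −0.21. This run was picked after its values were seen. The ratio of Hist1h3b was 1.17 (0.873 to 1.56), with an interval that includes 1. That of Hist1h4b was 1.56 (1.07 to 2.30), and 1.42 (0.973 to 2.09) with pool totals, where the interval includes 1. RNA of all 4 genes of the run was lower, by log2 fold changes of −1.57, −1.32, −1.33 and −0.57.

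Single members paired small and large changes of RNA and H3K27ac in different ways. Hist1h2af had the smallest RNA fall among the tested H2A genes and the largest H3K27ac loss, while Hist1h3g had large falls in both. Hist1h2an had the largest H3K27ac gain, and its RNA fold change rests on few irradiated counts, since it passed the count filter through untreated libraries only. Spearman's rho between the RNA fold change and the promoter difference was 0.289 for H3K27ac and 0.0744 for FAIRE over the 48 tested members, and 0.0517 and 0.0216 over all 14847 tested genes with a promoter value. These values describe genes that share libraries, pools and in part sequence, and are not independent points.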

How the data were processed

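The members and gene lists were chosen with earlier results of these data known. The submitters' processing notes name TopHat, Bowtie 0.12.9, DESeq2, MACS2 and the build mm9, without their roles. The authors deposited unscaled read counts per gene and RNA library. Their promoter tables hold, per the file headers, read counts as pooled coverage signal for each condition and the input, and a log2 enrichment that the authors deposited, which equals the log2 ratio of reads plus 16 to scaled input plus 16. The scale was 0.528 for irradiated and 0.657 for untreated FAIRE, and 0.712 and 0.706 for H3K27ac. Columns named for DMSO were taken as the irradiated pool, since the labels' protocol gives DMSO to irradiated cells. The authors' deposited comparison table, with a mean signal per gene, log2 fold changes and p-values, was used to count listed members and for the values of Hist2h2be. The number of unused columns with values per condition is 8, and peak files were not used.

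RNA was tested with edgeR 4.0.16 in R 4.3.3: filterByExpr, TMM, glmQLFit and the quasi-likelihood F test, Benjamini-Hochberg over all genes tested. The SE is the log2 fold change over the square root of F. In the text each class has the 4 members of highest mean CPM, those not called with the majority, the member of largest fold change and all tested members outside Hist1. For each assay the 3 most enriched promoters and the 2 largest gains and losses among the more enriched were named. Of other lists, up to 4 called genes by smallest p were named. Other genes, among them H2afv, Ipo4, Pcna and the markers, were picked after their values were seen. Simulated counts with 200 genes changed gave back 51 of 74 changed by a log2 of 1 and 65 of 65 changed by 2 at a mean count of at least 50, with 8 false calls over 14331 genes. Same-numbered libraries of the groups correlated at 0.155, −0.580 and 0.504 in their deviations, and differently numbered ones at −0.707 to 0.684. With 3 libraries a group these values cannot decide whether the numbers pair the libraries. The main test was unpaired. Under the replicate block 2067 genes were lower and 1276 higher, against 1854 and 1149 in the main test. Alternatives were DESeq2 1.42.0, its size factors, library totals, other filters, the replicate block, leaving out each library and other scalings of the promoter tables. Python 3.11.15 with pandas 2.3.3 and matplotlib 3.10.9 was used for the rest.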

Additional observations from a re-analysis of the deposited data

How the results depend on the processing

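The counts of lower and higher members stayed close under every alternative run, with 42 to 44 lower and 1 higher without each library in turn, and 44 lower and 1 higher under the replicate block, at a median of −1.78. Counts over all genes moved more: against 1854 lower and 1149 higher, there were 3739 and 905 with library totals alone, 2849 and 1188 without irradiated replicate 1, 1139 and 585 without irradiated replicate 3, 1511 and 1796 without untreated replicate 1, and 1168 and 1941 without untreated replicate 2. The 25 named members kept their direction in all 299 refitted values, and 5 of these passed the threshold where the main test did not. Medians moved most with library totals alone, where the median of all genes was −0.24: −2.01 for all members, −2.12 for H2A, −2.13 for H2B, −2.02 for H3 and −1.56 for H4. Without each library in turn they ran from −1.81 to −1.59 for all members, −1.96 to −1.71 for H2A, −1.97 to −1.71 for H2B, −1.83 to −1.65 for H3 and −1.38 to −1.17 for H4. The log2 ratio of the summed share was −1.48 on library totals, −1.25 on TMM-scaled sizes and −1.54 without Hist2h2bb, an alternative chosen after seeing the data. The FAIRE median of −0.62 was −0.43 centred on all promoters, −0.21 after quantile normalization and −0.27 with reads scaled by pool totals without input. Ratios of single promoters by pool totals were added after seeing the data. The H3K27ac median stayed between −0.53 and −0.20. The cause of these shifts was not tested. Pooled chromatin reads leave the spread between samples unknown.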

Other observations

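The promoter tables hold 6 further core histone symbols that are not in the RNA files. Hist1h2ad had 46 H3K27ac reads in the irradiated and 123 in the untreated pool, a difference of −1.17, and 27 FAIRE reads in the irradiated and 62 in the untreated pool. Hist2h2aa1 had 433 H3K27ac reads in the irradiated and 414 in the untreated pool, and Hist2h3c2-ps had 123 and 128 in the same pools. Hist1h2ao, Hist1h4m and Hist1h2bq had no reads in any pool or in the input.

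In 1 group of 5 neighbours of Hist1, from Hist1h2ah to Hist1h2bj, all 5 genes were lower in RNA, at a median of −2.10. All 5 promoters were lower in H3K27ac, at a median of −0.66. Among them are the head-to-head pairs Hist1h2ah with Hist1h2bk and Hist1h2ag with Hist1h2bj, whose windows share reads. In the group from Hist1h2bl to Hist1h2br all 11 tested genes were lower in RNA. There H3K27ac was below 0 at 8 promoters and above 0 at 3. In the longest group, the 23 genes from Hist1h4h to Hist1h3a, 21 were lower in RNA, at a median of −1.57. Here H3K27ac was below 0 at 19 promoters and above 0 at 4. Over all genes tested 12.4% were lower in RNA, and H3K27ac was below 0 at 57.4% of all promoters.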
